A study of Mus musculus with 16 samples.

Results

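The uterus responds to progesterone through a receptor that one gene, Pgr, makes in a long form (PRB) and a shorter form (PRA), and the data compare uteri made to carry more of one form or of the other when no hormone was given. Whole uteri of PgrcrePgrBLsL/+ mice (called PRB) were set against whole uteri of PgrcrePgrALsL/+ mice (called PRA), with 4 oil-treated animals of each genotype, 8 of the 16 libraries in the series. The other 8 libraries are from animals of the same genotypes given progesterone (P4), 4 of each, and serve here as separate animals in which the same genotype difference was measured. Every animal had been ovariectomized for 2 weeks and was collected 6 h after oil or P4, and the housing note gives 8 weeks as the age. Compared were the features whose FPKM averaged 1 or more across the series, 15408 of the 31274 in the table, where FPKM is a fragment number scaled to transcript length and sequencing depth.

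Both genotypes carry the Pgrcre allele, in which expression of the Cre recombinase is driven by Pgr. Cre so acts wherever that gene is on (epithelium, stroma and muscle of the uterus). Both genotypes also carry 1 copy of a Cre-activated receptor allele. The series title speaks of the uterine epithelium, whereas the sample names give the Pgrcre driver. No animal without a receptor allele was used here, so a difference between the genotypes does not say which of them departs from a normal uterus. A treatment note common to all samples describes mated females on day 4 of pregnancy and conflicts with the ovariectomy given elsewhere in the labels. Sequencing names place PRA libraries in row A and PRB libraries in row B, so position and genotype cannot be told apart. In whole tissue, fewer cells of a type and less RNA per cell cannot be told apart either.

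As background, both receptor forms are transcription factors that are held by chaperones until progesterone binds them, after which they move onto DNA at progesterone response elements. PRB carries an additional N-terminal activation region that PRA lacks, and the forms can regulate different genes. In the uterus progesterone restrains estrogen-driven growth of the epithelium and prepares the stroma for the embryo. After removal of the ovaries the main source of both steroids is gone, and oil is the vehicle that leaves the receptors without their ligand.

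Pgr itself (chromosome 9, 8899833 to 8968611, plus strand, mm10) was read in every oil library. It measured 66.7, 67.3, 56.8 and 68.9 FPKM in PRA oil replicates 1 to 4 and 87.6, 79.9, 79.4 and 87.3 FPKM in PRB oil replicates 1 to 4. The groups did not overlap, PRB being higher, yet the difference of 0.36 on the log2(FPKM + 1) scale (SE 0.12, 95% interval 0.11 to 0.61) was not called by limma with Benjamini-Hochberg adjustment (adjusted p = 0.588). It was called when PRB P4 replicate 3, which shares the fit, was left out (limma adjusted p = 0.0214). A value for the whole gene adds the animal's own transcript to that of the introduced allele and does not separate the forms, so it does not check which form a library carries.

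Very few genes distinguished the uteri without hormone. Of the 15408 features 18 were called (adjusted p under 0.05), 0.117% of those tested, with 6 higher in PRB (0.0389%) and 12 lower (0.0779%). The oil groups did not overlap in any of the 18, and in 522 features in all (3.39% of those tested). An unadjusted p under 0.05 was reached by 802 features (5.21%). Group differences were measured closely enough to bound most genes. The median SE was 0.09, and the 95% interval lay within 1 log2 unit of 0 in 14725 features (95.6%) and within 0.5 in 12634 (82%). The number called moved with the libraries: it was 8 without PRA oil 2, 9 without PRB oil 2, 10 without PRA oil 3, 10 without PRB oil 4 and 29 without PRB P4 3. Fitted on the 8 oil libraries alone, 6 features were called.

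The pair of annotated protein-coding genes with the largest called differences, Gbp2b and Gdpd3, were both lower in PRB. The sequence upstream of their starts is shown because these genes carry the largest differences. It was read from RefSeq on GRCm38.p6 (mm10), plus strand, Gbp2b at chr3:142594597-142594846 and Gdpd3 at chr7:126766164-126766333, the latter ending at the more upstream GENCODE start. Capitals mark the core of an interferon-stimulated response element, searched on both strands as a pair of GAAA runs 2 bases apart.

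Gbp2b: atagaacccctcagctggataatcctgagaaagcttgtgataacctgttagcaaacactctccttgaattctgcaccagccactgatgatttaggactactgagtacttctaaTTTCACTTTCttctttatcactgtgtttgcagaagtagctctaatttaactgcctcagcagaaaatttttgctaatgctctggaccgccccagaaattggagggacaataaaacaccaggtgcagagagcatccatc
Gdpd3: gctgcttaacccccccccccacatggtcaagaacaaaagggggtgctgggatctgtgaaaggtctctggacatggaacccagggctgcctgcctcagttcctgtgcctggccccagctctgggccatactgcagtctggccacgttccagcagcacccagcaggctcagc

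In the 250 bases before the RefSeq start, Gbp2b held 1 match to that core and Gdpd3 held 0, and 2.98% of 32851 RefSeq windows of this length held one. Neither window held ACANNNTGT, the shared core of progesterone, androgen and glucocorticoid response elements (5.84% of windows), or TATAAA (12.4%), each searched on both strands. A match is only a run of letters, and no binding was measured.

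Gbp2b encodes a guanylate-binding protein, one of a family of interferon-induced GTPases that act against microbes inside cells (chromosome 3, 142594847 to 142619179, plus strand). It measured 8.33, 7.23, 8.37 and 8.30 FPKM in PRA oil 1 to 4. In PRB oil 1 to 4 it measured 0.214, 0.175, 0.255 and 0.241 FPKM. Every PRA library lay far above every PRB library, with a mean 36.4 times as high in PRA. On the log2(FPKM + 1) scale the difference was -2.89 (SE 0.07, limma adjusted p = 5.61e-12), the smallest p of the contrast. It was the only called feature that kept its call in every alternative in which it was tested.

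None of the other 13 guanylate-binding and immunity-related GTPases tested was called. All 13 lay above 0 with every library, but 10 of them lay below 0 without PRB oil 3 and 4, which stood apart in interferon-stimulated genes. The summed level of the listed family, Gbp2b included, was 173 to 206 FPKM in PRA oil and 164, 175, 236 and 286 FPKM in PRB oil 1 to 4, so the higher PRB mean came with that pair. Gbp2, with which Gbp2b shares most sequence, measured 17.8, 16.04, 17.9 and 17.2 FPKM in PRA oil 1 to 4 and 15.9, 18.6, 23.5 and 23.5 FPKM in PRB oil 1 to 4. Those values overlap between the groups, at a difference of 0.21 (limma adjusted p = 1). Of the 50-base stretches of Gbp2b transcripts, 1.84% also occur in Gbp2.

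Gdpd3 encodes a lysophospholipase D, an enzyme of the endoplasmic reticulum that releases lysophosphatidic acid (chromosome 7, 126766334 to 126775649, plus strand). It measured 56.4, 53.6, 69.2 and 43.9 FPKM in PRA oil 1 to 4. The PRB oil libraries 1 to 4 measured 3.97, 4.04, 3.11 and 4.23 FPKM. The groups are far apart and narrow, the PRA mean being 14.5 times the PRB mean. The difference was -3.54 (SE 0.55, limma adjusted p = 0.0183). The wide SE comes from a fit shared with the P4 libraries, in which PRB measured 24.1, 2.18, 2.44 and 21.3 FPKM in replicates 1 to 4 and PRA measured 21.3, 18.8, 12.8 and 15.4. The 4 PRB P4 uteri thus fell into 2 levels, and their range spans that of PRA P4. With the 8 oil libraries alone the adjusted p was 4.17e-05. In the shared fit the limma adjusted p of 0.0183 rose to between 0.0592 and 0.0919 on leaving out 1 oil library. That held for each of PRA oil 1, 2 and 3 and PRB oil 2, 3 and 4.

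Gdpd3 stood alone among 19 tested genes that make, break down or bind lysophosphatidic acid and related lipids. The list held 11 members below 0 and 8 above, with a median difference of -0.01 beside -0.02 over all features tested. Mgll, which cleaves monoacylglycerol, measured 63.5, 43.0, 60.0 and 41.3 FPKM in PRA oil and 37.9, 42.9, 42.5 and 28.7 FPKM in PRB oil. Its groups overlap, at -0.43 (limma adjusted p = 0.774). Lpar3, the uterine receptor for lysophosphatidic acid in embryo spacing, measured 11.4 to 15.9 FPKM in PRA oil and 9.33 to 17.6 in PRB oil.

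The other annotated genes lower in PRB differed by less and are mostly general in function. Zfp868, which encodes a zinc finger protein (chromosome 8, 69610857 to 69625548, minus strand), measured 37.2, 25.8, 25.5 and 25.5 FPKM in PRA oil 1 to 4. PRB oil 1 to 4 stood at 12.3, 12.6, 11.97 and 12.7 FPKM. PRA oil 1 lay above its group, and the other PRA libraries still lay well above PRB. The difference was -1.12 (SE 0.13, limma adjusted p = 0.00275). Armc6, an armadillo repeat protein (chromosome 8, 70220172 to 70234466), measured 10.3 to 13.7 FPKM in PRA and 7.06 to 8.33 in PRB (difference -0.53, limma adjusted p = 0.0122). Ints10, a subunit of the Integrator complex that processes small nuclear RNA (chromosome 8, 68793929 to 68831667), measured 14.8 to 17.0 FPKM in PRA and 11.6 to 13.3 in PRB (difference -0.33). None of the other 13 Integrator genes was called.

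Rdh13, a mitochondrial retinol dehydrogenase (chromosome 7, 4424770 to 4445649, minus strand), was the second by p. It measured 22.4, 23.3, 20.8 and 21.6 FPKM in PRA oil 1 to 4 and 16.4, 16.6, 16.1 and 17.6 FPKM in PRB oil 1 to 4. The groups are separate and each narrow, with a difference of -0.38 (SE 0.04, limma adjusted p = 0.00251). Tgds, a sugar nucleotide dehydratase (chromosome 14, 118111911 to 118132755), measured 7.93 to 8.52 FPKM in PRA and 6.25 to 6.93 in PRB. Lgals8, a galectin that binds sugars on cell surfaces and damaged vesicles (chromosome 13, 12439415 to 12464944), measured 45.6 to 51.3 FPKM in PRA and 38.7 to 41.7 in PRB. These were the weakest calls, Tgds at -0.27 (limma adjusted p = 0.0433) and Lgals8 at -0.27 (limma adjusted p = 0.0462), lost in 23 and 20 of 27 alternatives. Among features without an established gene name, C130046K22Rik was lower, at -0.89 on the log2 scale, as were AK014089 at -0.66, AK133329 at -0.87 and AK085625 at -2.498. AK085625 was the most uneven of them, at 8.07, 7.28, 16.3 and 5.42 FPKM in PRA and 4.07, 0.271, 0.0374 and 0.227 in PRB.

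Of the 6 features called higher in PRB, the small nucleolar RNA Snord53 differed by 4.86 log2 units and the other 5 by less than 1. Tmem181b-ps, a pseudogene copy of a membrane protein gene (chromosome 17, 6438524 to 6467022, minus strand), measured 11.6, 11.5, 11.9 and 11.5 FPKM in PRA oil 1 to 4. In PRB oil 1 to 4 it measured 23.2, 24.8, 21.2 and 17.4 FPKM. The PRA values barely vary, and all PRB values lie well above them, with a difference of 0.83 (SE 0.11, limma adjusted p = 0.00851). Its parent family member Tmem181a (chromosome 17, 6256860 to 6308314, plus strand) measured 9.83 to 10.99 FPKM in PRA and 13.2 to 14.2 in PRB (difference 0.36, limma adjusted p = 0.0122). The copies share sequence, 44.4% of the 50-base stretches of Tmem181b-ps occurring in Tmem181a, so how fragments were divided between them is uncertain.

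Rpl34, a protein of the large ribosomal subunit (chromosome 3, 130726831 to 130730398, minus strand), measured 157, 181, 182 and 174 FPKM in PRA oil 1 to 4. In PRB oil 1 to 4 it measured 243, 228, 229 and 229 FPKM. All PRB libraries lay above all PRA libraries, with a difference of 0.42 (SE 0.06, limma adjusted p = 0.00851). It was the single member called among 46 genes of the large subunit, whose median difference was 0.03, and 7.78% of its 50-base stretches recur in processed copies elsewhere in the genome. Cacng7, a regulatory subunit of calcium channels and glutamate receptors (chromosome 7, 3332955 to 3368221), measured 19.5 to 21.7 FPKM in PRA and 26.1 to 30.2 in PRB (difference 0.47, limma adjusted p = 0.0122). Zfp14, a zinc finger gene (chromosome 7, 30036359 to 30051380), measured 7.51 to 9.38 FPKM in PRA and 11.9 to 13.5 in PRB (difference 0.56, limma adjusted p = 0.0122).

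Zinc finger genes with numbered Zfp names were mostly a little lower in PRB. Of 308 tested, 226 lay below 0 and 82 above, with a median difference of -0.04, beside 57.9% of all features tested below 0 and a median of -0.02. Only Zfp868 was called lower and only Zfp14 higher. Zfp429 measured 3.08 FPKM on average over the oil libraries and had the largest difference of the list, -1.57 (limma adjusted p = 0.246).

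**Figure D1:**
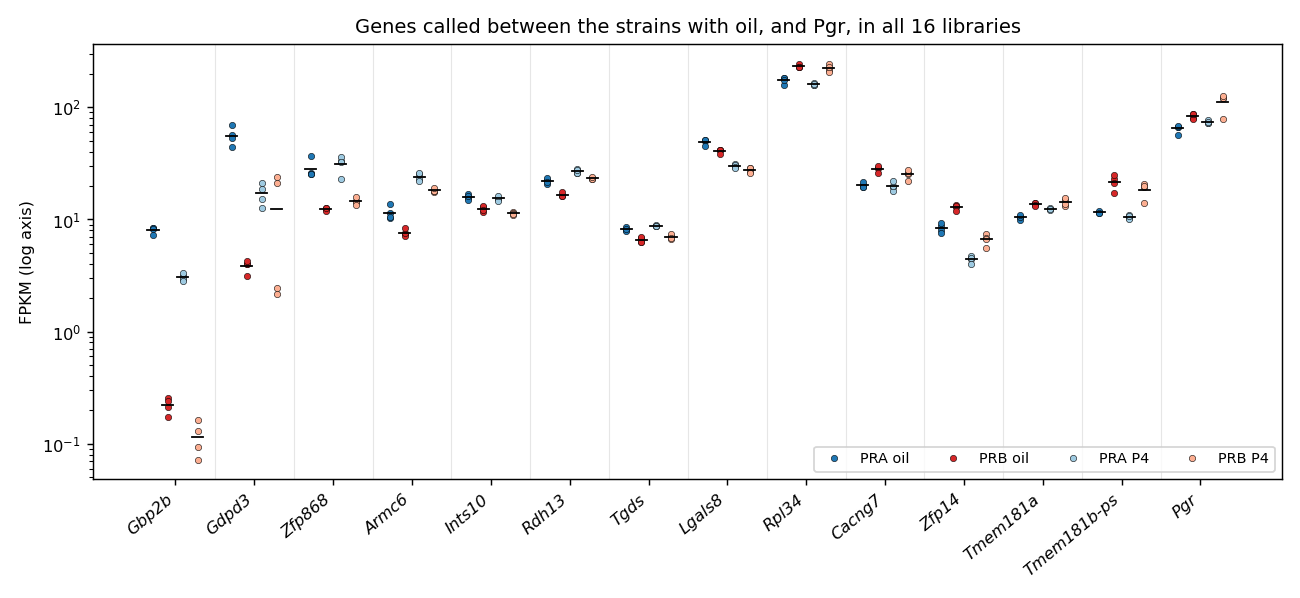
FPKM (log axis) of 13 annotated genes called between the genotypes with oil and of Pgr in all 16 libraries. Each point is 1 library and each short line a mean of 4. Gbp2b lies at 7.23 to 8.37 FPKM in PRA oil and at 0.175 to 0.255 in PRB oil, and the PRB P4 points of Gdpd3 split into 2.18 and 2.44 against 21.3 and 24.1.

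Snord53 was either present at 1 level or listed at 0. This small nucleolar RNA, one of the guides of ribosomal RNA modification (chromosome 17, 71640879 to 71640956, plus strand, 78 bases), was listed at 0 in all 4 PRA oil libraries and at 28.2, 28.4, 27.4 and 27.8 FPKM in PRB oil 1 to 4. Among the P4 libraries it was listed at 29.4 FPKM in PRA P4 1 and at 0 in the remaining 7. Multiplied by the implied depth, its 5 values above 0 differed by no more than 1.002-fold, as an equal fragment number in each would give, and a listed 0 need not mean absence. Its call (limma adjusted p = 0.0274) was lost when any 1 of the 8 oil libraries was left out of the fit shared with P4. With the 8 oil libraries alone, where values within a group barely differ, the limma adjusted p was 1.38e-09.

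The P4 animals, which share no library with the oil animals, gave the genotype difference a further reading. Of the 18 features called with oil, 17 had the same sign with P4 and 13 were called with P4 in the same direction, and those 13 had P4 groups that did not overlap. For comparison, 16% of all features were called between the genotypes with P4, 9.23% did not overlap with PRB higher and 10.9% with PRB lower, and 56.9% had the same sign in both settings. Both contrasts came from the same fit and share the error estimate of each feature, so their calls are not independent. Gbp2b measured 3.12, 2.95, 3.31 and 2.83 FPKM in PRA P4 1 to 4 and 0.0933, 0.131, 0.163 and 0.0722 FPKM in PRB P4 1 to 4. The PRB level was again close to 0, while the PRA level was below that with oil, and the difference of -1.86 (limma adjusted p = 2.74e-09) was smaller in size than with oil. The change in the difference, P4 minus oil, was 1.03 (SE 0.10, limma adjusted p = 0.000228).

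Zfp868, Rpl34, Ints10 and Tmem181b-ps kept their size with P4, at differences of -1.04, 0.47, -0.42 and 0.75, and for none of them was the change from oil called. Gdpd3, whose PRB P4 values were split, stood at -1.01 (limma adjusted p = 0.233), and its change of 2.54 (SE 0.78) was not called (limma adjusted p = 0.109). Lgals8 was not called with P4 (-0.12, limma adjusted p = 0.114). The difference changed with P4 in 4 of the 18 features, namely Gbp2b, Snord53, AK085625 and C130046K22Rik, beside 352 of all features (2.28%). C130046K22Rik measured 8.37 to 9.09 FPKM in PRA oil against 3.88 to 4.68 in PRB oil, but 4.10 to 4.78 in PRA P4 against 2.78 to 5.10 in PRB P4, where the groups overlap.

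**Figure D2:**
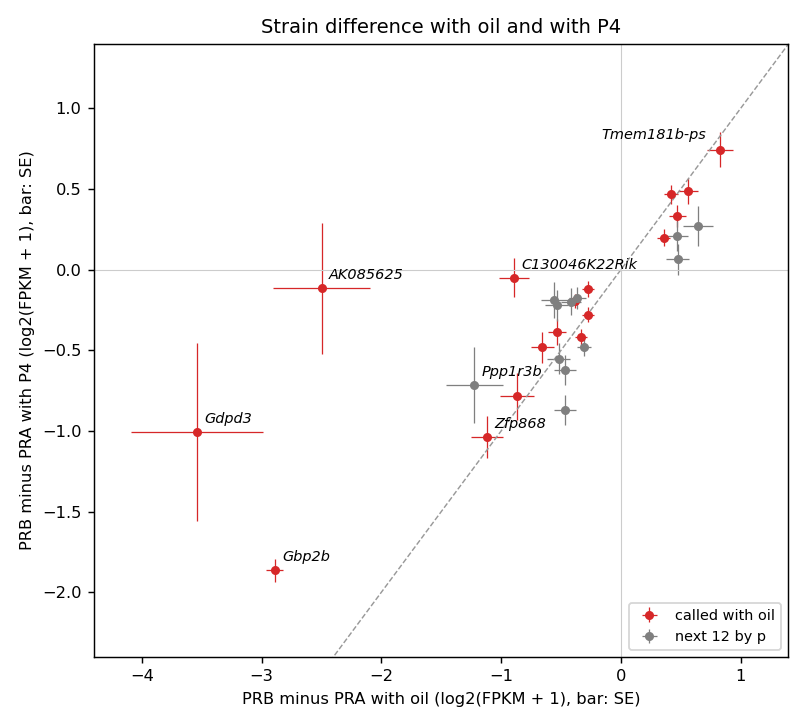
PRB minus PRA difference on the log2(FPKM + 1) scale with oil (x axis) and with P4 (y axis) for 17 of the 18 called features (red) and the next 12 by p (grey), with bars of 1 SE and a dashed line of equality. Snord53, at 4.86 with oil and -1.23 with P4, is left out of the plot for scale. Zfp868 and Tmem181b-ps lie near the line, and Gbp2b, Gdpd3 and AK085625 lie above it.

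Several called genes lay near each other. Of the 15 called features with a position, 7 lay within 10 Mb of another, on chromosomes 7, 8 and 17. On chromosome 8, Ints10, Zfp868 and Armc6 lay close together and were all lower in PRB. On chromosome 17, Tmem181a and Tmem181b-ps started 0.182 Mb apart, with Dynlt1a and Dynlt1b between them, and were higher. At the start of chromosome 7, Cacng7 was higher and Rdh13 lower. Of the next 12 features by p, 11 had a position and 5 of those lay within 10 Mb of a called feature, where 8.91% of the tested features lie. Inside these windows, with the called features left out, 112 of 1273 features (8.8%) reached an unadjusted p under 0.05 in the limma fit, against 4.57% elsewhere. The direction within a window was mixed, and with P4 the share called was 17.8% inside the windows and 16.4% elsewhere.

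Direct neighbours of the called genes were read in the same fit. The 3 nearest tested genes on either side of each called gene were taken, and called genes were left out of this set. Of the 83 neighbours that remained, 15 (18.1%) had an unadjusted p under 0.05 by limma. In 13 (15.7%) the oil groups did not overlap. Over all features those shares were 5.21% and 3.39%. Dynlt1b, a dynein light chain beside Tmem181b-ps, measured 22.1 to 25.5 FPKM in PRA and 37.2, 38.2, 37.2 and 26.9 FPKM in PRB oil 1 to 4. All PRB values were higher, and the difference of 0.50 was not called (limma adjusted p = 0.161) unless PRB oil 4 was left out (limma adjusted p = 0.0241). Dynlt1a, Tmem181c-ps and Dynlt1f in the same stretch also had PRB oil wholly above PRA oil, at 0.30, 0.32 and 0.31, without a call. These neighbours and Dynlt1b are counted in both the 15 and the 13. Mef2b, a transcription factor gene beside Armc6, differed by -0.69 (limma adjusted p = 0.215), and Csgalnact1, which starts chondroitin sulfate chains and lies beside Ints10, by -0.37 (limma adjusted p = 0.300). Gpr180, the neighbour of Tgds, measured 17.1 to 18.9 FPKM in PRA and 13.5 to 14.8 in PRB and differed by -0.31 (limma adjusted p = 0.0741). It was called with P4, at -0.48 (limma adjusted p = 0.000154).

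**Figure D3:**
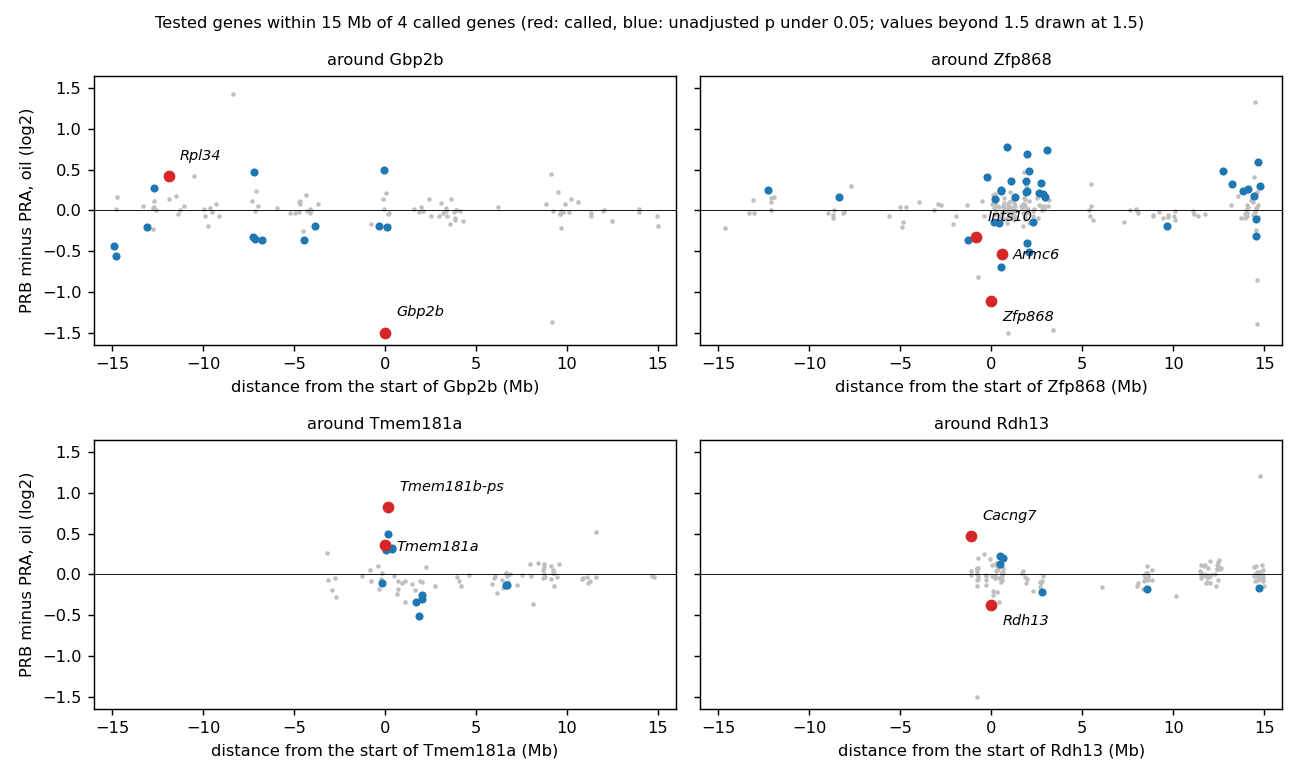
PRB minus PRA difference with oil (log2 scale) of tested genes against distance in Mb from the start of Gbp2b, Zfp868, Tmem181a and Rdh13. Red points are called, blue points have an unadjusted p under 0.05, grey points are the rest, and values beyond 1.5 are drawn at 1.5. Ints10, Zfp868 and Armc6 lie together below 0, and Tmem181a and Tmem181b-ps together above it.

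Just outside the threshold stood the 12 features next by p, with adjusted p from 0.0562 to 0.113. Bcl6, a transcriptional repressor, measured 12.3, 9.96, 10.7 and 7.24 FPKM in PRA oil 1 to 4 and 16.9, 15.3, 15.2 and 16.7 FPKM in PRB oil 1 to 4. The groups did not overlap, at a difference of 0.64 (limma adjusted p = 0.0890). Ppp1r3b, which targets a phosphatase to glycogen, measured 17.7, 7.54, 11.6 and 7.21 FPKM in PRA and 4.71, 3.12, 4.33 and 3.45 FPKM in PRB. It too was separate between the groups, at -1.22 (limma adjusted p = 0.0906). Cisd2, a protein of the mitochondrial and reticulum membranes, was higher at 0.47 and Kdm8, a Jumonji family hydroxylase, at 0.48. Lypd6, a modulator of Wnt signalling, was lower at -0.54, Trmt10a, a transfer RNA methyltransferase, at -0.36, and Fcho1, a protein of endocytic pits, at -0.52.

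Genes that answer to progesterone were not called with oil. Of 24 tested, 0 were called by limma, 5 reached an unadjusted p under 0.05, all higher in PRB (1.9% of all features), and 17 lay above 0, with a median of 0.12 beside -0.02 over all features. Hoxa11, a homeobox factor of the stroma, measured 67.7, 88.1, 70.1 and 84.2 FPKM in PRA oil 1 to 4 and 107, 80.5, 83.3 and 125 FPKM in PRB oil 1 to 4. Its groups overlap, and the difference was 0.33 (limma adjusted p = 0.721). Hand2, which mediates the stromal action of progesterone on the epithelium, differed by 0.25 (limma adjusted p = 0.845). Fkbp5, a chaperone of steroid receptors, measured 1.75, 2.64, 2.74 and 2.86 FPKM in PRA and 4.13, 2.59, 3.83 and 3.73 in PRB, which overlap, at 0.39 (limma adjusted p = 0.786). With P4 the same gene measured 37.6 to 48.2 FPKM in PRA and 110 to 178 in PRB, and its genotype difference was larger by 1.27 (limma adjusted p = 0.00771).

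The receptors and their partners were measured within narrow bounds. Of 20 steroid receptor and cofactor genes 0 were called, and 2 reached an unadjusted p under 0.05 in the limma fit. Those were Pgr and Fkbp5, both already given above. Every one of the 20 had a 95% interval within 1 log2 unit of 0. Esr1, estrogen receptor alpha, measured 80.0 to 89.1 FPKM in PRA oil and 80.7 to 90.1 FPKM in PRB oil. Its values overlap almost wholly, with a difference of 0.00 (95% interval -0.17 to 0.16). Among 14 genes of the leukemia inhibitory factor (LIF) pathway, by which estrogen makes the uterus receptive, 0 were called by limma and 0 had an unadjusted p under 0.05, with a median of 0.01. Its receptor Lifr measured 17.8 to 29.6 FPKM in PRA and 17.2 to 23.2 in PRB, and the co-receptor Il6st 94.8 to 113 and 88.7 to 109. Among 17 estrogen-responsive genes 0 were called by limma and 0 had an unadjusted p under 0.05, at a median of -0.04.

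Among the leukocyte markers, 4 that serve class II antigen presentation, H2-Eb1, H2-Aa, H2-Ab1 and Cd74, had their PRB oil values wholly above those of PRA oil without being called. H2-Eb1, a chain of the class II histocompatibility molecule, measured 76.6, 70.9, 79.5 and 88.6 FPKM in PRA oil 1 to 4 and 95.8, 99.4, 94.8 and 116 FPKM in PRB oil 1 to 4. The other chain genes are H2-Aa and H2-Ab1, and Cd74 encodes the invariant chain. The differences were 0.36, 0.31, 0.39 and 0.32 in that order, with limma adjusted p of 0.163, 0.211, 0.316 and 0.252. With P4 they were 0.24, 0.21, 0.29 and 0.26, of which that of Cd74 was called (limma adjusted p = 0.0362). All 16 tested leukocyte markers lay above 0, with a median of 0.16, 5 of them with PRB oil wholly above PRA oil (1.25% of all features), and 0 were called by limma beside 5 with an unadjusted p under 0.05. Their summed level was 485 to 602 FPKM in PRA oil and 632 to 775 FPKM in PRB oil.

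The remaining tissue markers placed the oil libraries as uterus in both genotypes. Epithelial, stromal and smooth muscle markers were abundant, with Epcam at 59.9 to 80.5 FPKM, Hoxa11 at 67.7 to 125 FPKM and the smooth muscle actin Acta2 at 234 to 329 FPKM over the 8 libraries. None of the 15 epithelial, 13 stromal, 15 smooth muscle and 10 endothelial markers tested was called by limma, and unadjusted p fell under 0.05 in 4 stromal markers only. All of those 4, Pdgfra, Hoxa11, Hand2 and Col6a1 among the 13 stromal markers, were higher in PRB, at 0.26, 0.33, 0.25 and 0.24. Over all features 1.9% had such a p with PRB higher. All 13 stromal markers lay above 0, with a median of 0.15 beside -0.02 over all features. Hoxa11 and Hand2 are also given above with the genes that answer to progesterone. The summed stromal level was 1475 to 1612 FPKM in PRA oil and 1540 to 1811 FPKM in PRB oil, and that of smooth muscle 2450 to 3117 and 2326 to 2938.

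The oil animals of 1 genotype also differed among themselves. For the typical gene the spread was small, with a median SD of 0.113 for PRA and 0.107 for PRB on the log2(FPKM + 1) scale. Libraries of the same group correlated at a median r of 0.981 in PRA and 0.987 in PRB over protein-coding features, and PRA with PRB libraries at 0.985, across genes, which are not independent. The first principal component of the deviations from the group means held 59.4% of their variance. PRA oil 1 (-18.8), PRA oil 3 (-17.0) and PRB oil 2 (-17.8) lay on one side and PRA oil 4 (23.0), PRB oil 4 (14.9) and PRA oil 2 (12.8) on the other, with PRB oil 1 and 3 near the middle.

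Genes of dividing cells and glands lay on one side of that axis, and fat genes on the other. Mki67, which marks dividing cells, measured 1.52, 7.52, 1.44 and 11.2 FPKM in PRA oil 1 to 4. PRB oil 1 to 4 stood at 5.17, 3.13, 7.85 and 9.499 FPKM. The low values were those of PRA oil 1, PRA oil 3 and PRB oil 2, and the summed level of the listed cell cycle genes was lowest in the same libraries. Ihh, the hedgehog ligand that the epithelium makes under progesterone, measured 3.26, 17.1, 4.08 and 21.1 FPKM in PRA and 19.2, 7.10, 11.1 and 30.6 in PRB. Foxa2, the gland regulator, measured 2.95, 7.76, 2.94 and 10.1 FPKM in PRA and 9.22, 4.23, 9.45 and 10.5 in PRB. Cxcl15, a gland chemokine, ranged from 1.72 FPKM in PRA oil 3 to 15.6 in PRB oil 4, and the secreted protein gene Scube1 from 3.67 to 33.2 in the same libraries.

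On the opposite side, 6 of the 15 genes with the strongest weights were listed adipose markers, namely Plin1, Cfd, Cidec, Adipoq, Retn and Fabp4. The summed level of 7 adipose markers was 994, 322, 905 and 118 FPKM in PRA oil 1 to 4 and 159, 370, 687 and 178 FPKM in PRB oil 1 to 4. Fat was thus highest in PRA oil 1 and 3, and within PRB in replicate 3 and then 2. Each of the 7 was lower on average in PRB, and 0 were called by limma or had an unadjusted p under 0.05. Adipoq, the fat cell hormone adiponectin, measured 159, 45.0, 129 and 17.7 FPKM in PRA and 21.6, 46.3, 89.1 and 23.6 in PRB.

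Of those 15 genes, 4 were higher in PRA oil 1, PRA oil 3 and PRB oil 2 than in every other oil library, among them Ptgdr, Hpgds and Ltf. Ptgdr, a receptor of prostaglandin D, measured 19.2, 2.03, 18.6 and 0.785 FPKM in PRA oil 1 to 4. In PRB oil 1 to 4 it measured 2.16, 14.9, 1.18 and 1.33 FPKM. Hpgds, which makes that prostaglandin, measured 50.6, 15.46, 43.9 and 6.93 FPKM in PRA and 23.8, 32.1, 14.6 and 8.65 in PRB. Clca3, an estrogen-responsive epithelial gene, measured 133, 45.3, 161 and 26.8 FPKM in PRA and 22.96, 81.9, 29.96 and 21.5 in PRB. Ltf, the estrogen-induced lactotransferrin, was highest in PRB oil 2 at 43.2 FPKM and lowest in PRA oil 4 at 6.66 FPKM.

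**Figure D4:**
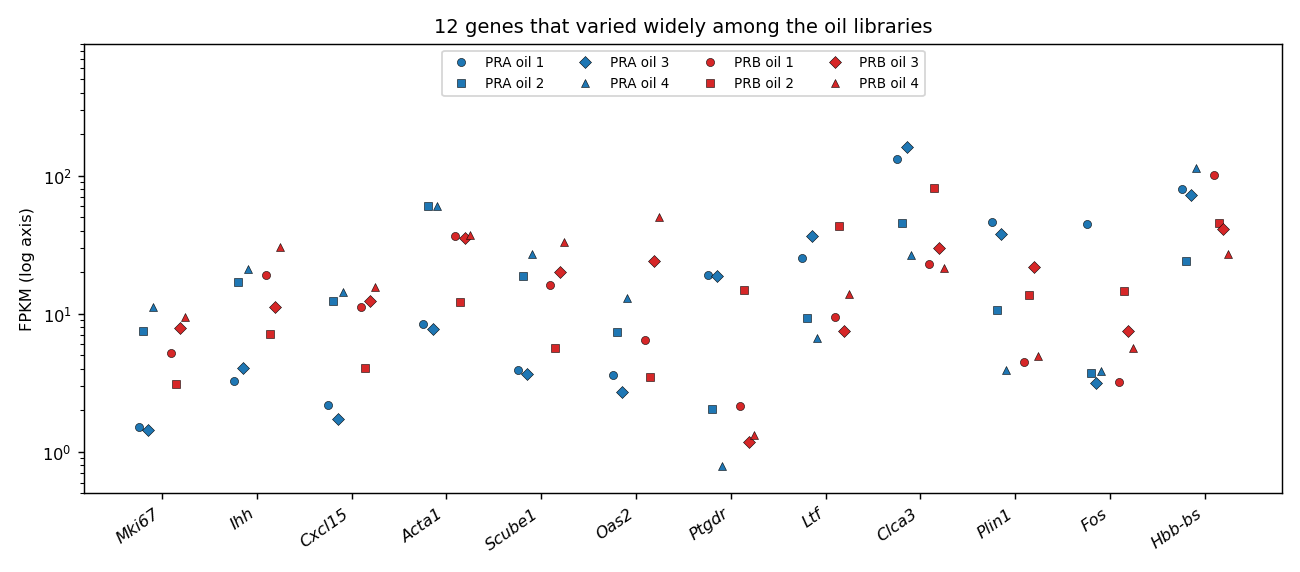
FPKM (log axis) of 12 genes with a wide spread among the 8 oil libraries, with the marker shape giving the replicate (PRA blue, PRB red). Mki67, Ihh, Cxcl15, Acta1 and Scube1 are low in PRA oil 1, PRA oil 3 and PRB oil 2, where Ptgdr and Clca3 are high.

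When PRA oil 1, PRA oil 3 and PRB oil 2 were all left out, leaving 2 PRA and 3 PRB libraries, 1 feature was called, Gbp2b, at -2.82 (limma adjusted p = 1.24e-07). All 18 kept their sign. Gdpd3 stood at -3.38 (limma adjusted p = 0.551), AK085625 at -1.969 (limma adjusted p = 0.783), Zfp868 at -0.999 (limma adjusted p = 0.0841) and Armc6 at -0.39 (limma adjusted p = 0.312), with fewer libraries to measure them. This selection was added after the data had been seen.

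Interferon-stimulated genes were high in a pair of PRB uteri. Oas2, an antiviral enzyme that senses double-stranded RNA, measured 3.62, 7.35, 2.71 and 13.0 FPKM in PRA oil 1 to 4. Its PRB oil values in replicates 1 to 4 were 6.49, 3.51, 24.0 and 50.4 FPKM. Irf7, a driver of interferon production, stood at 27.0 and 55.1 FPKM in PRB oil 3 and 4 and at 9.22 to 14.7 FPKM in the other 6 libraries. Isg15, a ubiquitin-like modifier, stood at 39.5 and 65.8 FPKM in the same pair. Of 23 listed interferon-stimulated genes tested, 23 lay above 0, of which 19 lay below 0 without PRB oil 3 and 4. By limma 0 were called, with 1 (Bst2) at an unadjusted p under 0.05. Ifi44l, also interferon-stimulated but outside that list, lay the other way at -1.38 and was not called. Gbp3 reached 22.6 and 28.3 FPKM in PRB oil 3 and 4 against 10.6 to 14.3 elsewhere, and its difference of 0.49 became -0.03 without them. Gbp2b, by contrast, stayed at 0.255 and 0.241 FPKM in PRB oil 3 and 4. Without this pair 7 features were called, again by a selection added after the data had been seen.

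Blood and early response genes varied from animal to animal as well. Globin and other red cell genes summed to 237, 78.1, 205 and 320 FPKM in PRA and 299, 125, 129 and 72.8 in PRB. Fos, an immediate early transcription factor, measured 44.6, 3.73, 3.18 and 3.84 FPKM in PRA and 3.21, 14.6, 7.47 and 5.63 in PRB. Atf3 and Egr1 were likewise highest in PRA oil 1, at 23.0 and 71.7 FPKM, and second in PRB oil 2, at 13.1 and 40.2 FPKM. The part that fat, blood or handling of the tissue had in the genotype differences was not tested.

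**Figure D5:**
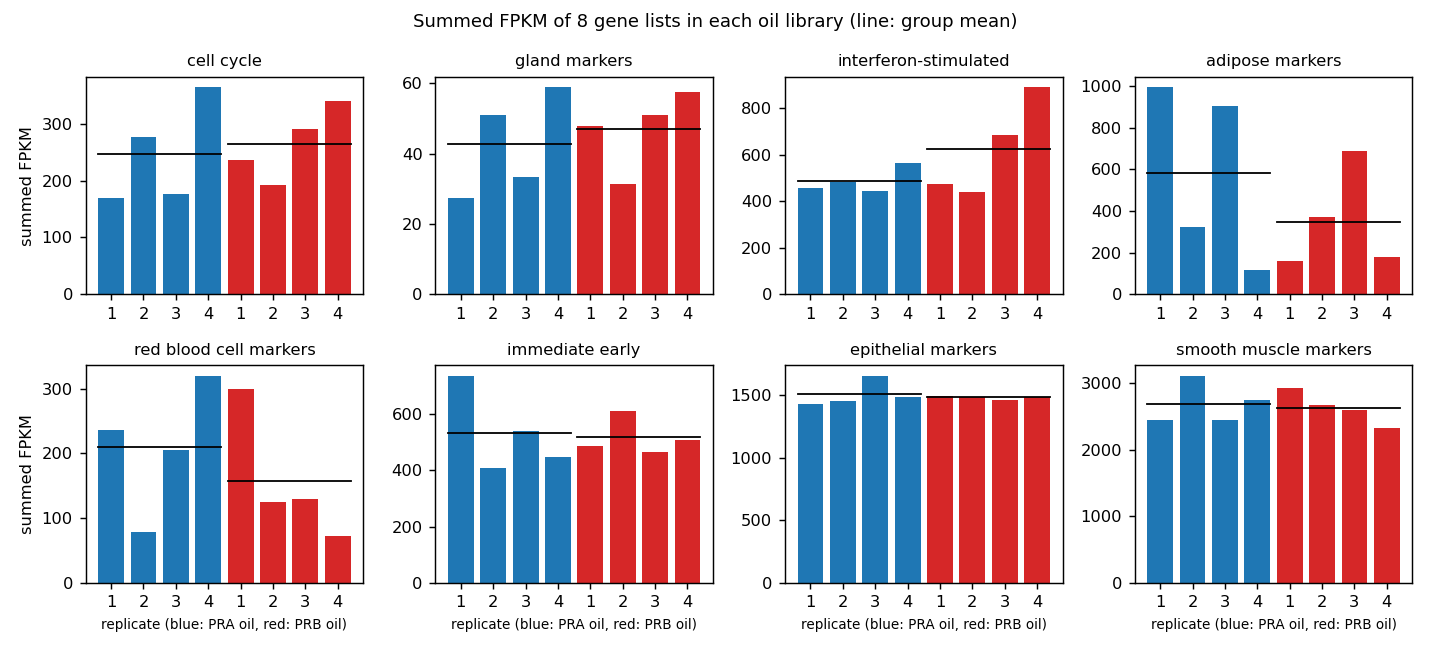
Summed FPKM of 8 gene lists in each of the 8 oil libraries (PRA blue, PRB red, line at the group mean). Cell cycle and gland sums are lowest in PRA oil 1, PRA oil 3 and PRB oil 2, the interferon-stimulated sum is highest in PRB oil 3 and 4, and epithelial sums stay between 1428 and 1654.

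Some features jumped between levels instead of spreading. Rpl29, of the large ribosomal subunit, measured 80.9, 204, 85.9 and 87.0 FPKM in PRA oil 1 to 4 and 81.3, 222, 77.6 and 221 in PRB oil 1 to 4. Ifi44l stood at 0.633 and 0.534 FPKM in PRB oil 1 and 2 and at 14.1 to 27.3 FPKM elsewhere. MicroRNA and small nucleolar features were the least steady class, 44.6% of 303 having an SD of 1 log2 unit or more in PRA and 42.6% in PRB, against 0.499% and 0.149% of protein-coding features.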

How the data were processed

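The authors deposited FPKM per feature for 16 whole-uterus RNA-seq libraries (total RNA extracted with Trizol, Illumina libraries, per the labels). The submitters' processing notes name TopHat2 2.0.4, Cufflinks 2.0.2, Cuffdiff and mm10, without the role of each. The annotation, the strandedness and any scaling were not given in the sources used here, so overlapping genes on opposite strands may share fragments. No fragment counts were used. The spacing of low values in 3398 single-transcript features longer than 800 bp implied 70.3 M to 73.3 M fragments per oil library after any scaling. That spacing was read with 200 bases taken off each transcript's length. In the lowest oil library 1 FPKM over 2 kb of such shortened length would stand for about 140.5 implied fragments. The FPKM of a library summed to 516178 ± 14041 for PRA oil against 515035 ± 5413 for PRB oil (SD, n = 4; exact two-sided permutation p = 0.886, where the smallest possible is 2 in 70).

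Values were tested as log2(FPKM + 1) with limma 3.58.1 (R 4.3.3): 1 fit of 16 libraries with 4 group means, 12 residual degrees of freedom, an intensity trend, and Benjamini-Hochberg adjustment over 15408 features. The pseudocount understates changes of weakly expressed genes. Features were matched to GENCODE M21 (14302, of which 592 by an older symbol), which gave positions. The labels call the animals biological replicates. They do not say that replicate numbers pair the genotypes, and the main fit did not treat them as pairs. Named genes are Pgr, the called features, the next 12 by p, the largest differences without overlap, the widest spreads, the 3 neighbours on either side and leading members of 28 lists, plus genes singled out in the spread section after their values were seen. Members and lists were chosen with earlier results of these data known. The procedure was tested on simulated data with noise drawn independently for each feature and library. Such data lack the variation that genes share among the oil libraries. Alternatives were other pseudocounts, filters, scalings, the oil libraries alone, a replicate block and leaving out each library.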

Additional observations from a re-analysis of the deposited data

Results flagged for a closer look

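In 200 groups of 4 oil libraries (genes named or list sums), 21 single libraries lay far from the other 3, with a gap to the nearest, as a share of the group's range, beyond Dixon's 95% critical value. Chance alone gives about 1 in 20 groups that were not picked by their values, and genes that vary together are counted separately. Some of the genes here were named for a wide spread among these same libraries, so the count cannot be set against that rate. Among called features the outlying libraries were PRA oil 2 for Gbp2b (7.23 FPKM), PRA oil 1 for Zfp868 (37.2 FPKM), PRB oil 1 for Rpl34 (243 FPKM), PRA oil 4 and PRB oil 4 for Lgals8 (45.6 and 38.7 FPKM), PRB oil 2 for AK014089 (8.59 FPKM), PRB oil 1 for AK085625 (4.07 FPKM) and PRB oil 4 for AK133329 (1.41 FPKM). None of these values reached into the range of the other genotype.

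Among genes near the threshold they were PRB oil 1 for Mpc1 (39.5 FPKM), PRB oil 4 for Dynlt1b (26.9 FPKM) and PRA oil 4 for Slc39a8 (9.54 FPKM). PRB oil 2 stood apart in Acta1 (12.2 FPKM), Clca3 (81.9 FPKM), Ptgdr (14.9 FPKM), Atf3 (13.1 FPKM) and the summed skeletal muscle markers (18.0 FPKM). PRA oil 1 stood apart in Fos (44.6 FPKM), Atf3 (23.0 FPKM) and Egr1 (71.7 FPKM), and PRA oil 2 in Rpl29 (204 FPKM) and the summed stromal markers (1612 FPKM).

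The genotype difference itself changed between oil and P4 in 5 of the features examined one by one, by the interaction term of the limma fit. The change, P4 minus oil, was 1.03 for Gbp2b, -6.09 for Snord53, 2.38 for AK085625, 0.84 for C130046K22Rik and 1.27 for Fkbp5. For Fkbp5 the difference was not called with oil, while for AK085625 nearly all P4 values lay near 0 in both genotypes.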

How the results depend on the processing

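The count of 18 called features (6 higher, 12 lower) was 33 with no filter (10 and 23), 6 from the 8 oil libraries by themselves (2 and 4), 7 without PRB oil 3 and 4 (2 and 5) and 1 without PRA oil 1, PRA oil 3 and PRB oil 2 (0 and 1). The last pair of selections and the removal of unmatched and small RNA features, after which 12 were called and 7 of them lower, were chosen after seeing the data. Of the 18, 17 stayed called with no filter, 5 from the 8 oil libraries by themselves and 3 without PRB oil 3 and 4. Quantile normalization gave 10 higher and 13 lower. Leaving out 1 library at a time gave 8 to 29 calls, 2 to 11 higher and 5 to 18 lower. It gave 1412 to 2612 calls with P4, beside 2471, and 155 to 494 changes between oil and P4, beside 352. The fit with a replicate block called 19, of which 17 were shared. The deviations of same-numbered libraries correlated at -0.13, -0.54, -0.16 and 0.61 for replicates 1 to 4. Such mixed values cannot settle whether the numbers pair animals. The difference in total FPKM, -1144, ranged from -6620 to 3059 without 1 library, turning to 2430, 3059 and 1224 without PRA oil 2, PRA oil 3 and PRB oil 3. Without 1 library at a time the median SD ranged from 0.0986 to 0.115 in PRA and from 0.0936 to 0.106 in PRB. It was 0.125 and 0.118 with a pseudocount of 0.1, 0.116 and 0.111 with quantile normalization, and 0.104 and 0.0956 from 5 FPKM. Over 43 features and 1151 alternatives, 1000 kept direction and side of the threshold, 132 lost a call, 18 gained one and 1 turned, Gbp3 at -0.0264 without PRB oil 3 and 4. The cause was not tested. Depth limits weak genes most, and values under 1 FPKM are compressed by the pseudocount.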
